A study of Mus musculus with 6 samples.

Results

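The genes of the cardiac sarcomere and of the machinery that keeps it in repair were followed in the left ventricles of mice with raised glucose entry into cardiomyocytes. The list held 33 genes, chosen by name for their roles, with earlier results of these data known. A gene was measured where a probe set of the array carried its symbol and no other. This held for 31 of the 33, out of 13178 genes tested, and Xirp2 and Trim55 were not analysed here. Glut1-TG mice expressed a human Glut1 transgene, an insulin-independent glucose transporter, under the alpha-myosin heavy chain promoter, which is active in cardiomyocytes. The comparison was between 3 WT and 3 Glut1-TG hearts, 1 array each, all from male FVB mice aged 11 to 12 weeks on standard chow. The sample labels call the controls wild type, while the design text of the series counts both groups among cardiac-specific transgenic mice. How many founder lines the transgenic hearts came from is not given in the sources used here.

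The sarcomere is the repeating contractile unit of muscle. Thick filaments of myosin are held at the M-band, thin filaments of actin carry the troponin and tropomyosin switch that answers to calcium, and both are tied to the Z-disc, where alpha-actinin crosslinks the actin ends and titin is anchored. Because the filaments work under constant load, chaperones refold their proteins and muscle ubiquitin ligases mark worn ones for the proteasome. The ligases Trim63 and Fbxo32, also called MuRF1 and atrogin-1, are classical markers of muscle wasting, and mutations in many Z-disc genes cause cardiomyopathy or myofibrillar myopathy.

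Signals are on the linear scale of the deposited table, in which every array has a trimmed mean of 500. Array medians were 171 to 188 in WT and 181 to 213 in Glut1-TG hearts, with Glut1-TG replicate 1 the highest. The ratio of 3' to 5' signal on the control probe sets for beta-actin was 1.31 to 1.40 in WT and 0.995 to 1.06 in Glut1-TG arrays, without overlap, and that for Gapdh was 0.817 to 0.827 and 0.789 to 0.830. Mouse Slc2a1, the endogenous Glut1 gene, had 489 ± 70.0 in WT and 787 ± 55.4 (SD, n = 3) in Glut1-TG hearts, which was 0.69 on the log2 scale and missed the threshold (limma adjusted p = 0.11). Whether its probe set reads the human transgene is not given in the sources used here. The 8 cardiomyocyte markers outside the list were all measured, with summed signals of 287890 to 353531 in WT and 270712 to 290748 in Glut1-TG arrays. The 5 atrial markers did not go one way, and their summed level was 5453 to 6270 in WT and 5332 to 8799 in Glut1-TG arrays. Myl4 rose (log2 fold change 1.75, limma adjusted p = 0.0085, and 0.104 for the mean of its probe sets). Myl7 also rose (limma adjusted p = 0.041), from signals of 26.5, 90.5 and 14.2 in WT, all under the signal of the filter, to 378, 713 and 315 in Glut1-TG hearts, and no fold is given for it. Nppa and Bmp10 had log2 fold changes of -0.07 and -0.61 with overlapping groups, and Sln, under the filter, had 114 to 117 in WT and 39.4 to 65.3 in Glut1-TG hearts. The Myl7 call ended without WT replicate 1 or 3 (adjusted p = 0.14 and 0.094) and without Glut1-TG replicate 1, 2 or 3 (0.096, 0.20 and 0.11). The part of these RNA quality and marker values in the results that follow was not tested. All 6 skeletal muscle markers were under the filter, with sums of 278 to 363 and 271 to 448. Markers of fibroblasts (sums of 26783 to 29891 and 24499 to 33743), endothelium (10472 to 12569 and 11040 to 11276) and macrophages (8275 to 8880 and 8132 to 10551) gave 0 limma calls, with sums that overlapped between the groups. Their median log2 fold changes were 0.074, 0.078 and 0.12, with 1 of 7, 1 of 6 and 1 of 6 genes below 0. The endothelial gene below 0 was Kdr (-0.45, groups without overlap, limma adjusted p = 0.23). Smooth muscle markers had a median of -0.05, with 2 of 4 below 0.

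Of the 31 genes, 1 fell, 0 rose and 30 did not pass at an adjusted p under 0.05 from limma, where 0.599% of all genes tested fell and 0.258% rose (0.857% together). The one that fell was Myot. At an unadjusted limma p under 0.05, 8 were lower and 1 was higher, against a background of 5.81% and 5.47% of all genes. All 31 were in the top 10% by mean signal, where 225 of the other 1287 genes were lower and 56 higher at this p. By the study's thresholds, which ask for a group mean over 25% above the other together with an unadjusted p under 0.05 in the methods' t-test, 1 was lower (Myot) and 0 were higher, against 2.65% and 3.21%. The list as a whole leaned downward by a small amount. In 27 of the 31 the log2 fold change was below 0, against 47% of all genes tested, and the median was -0.17, or a percent change of -11.1%, against 0.017 over all genes. The groups did not overlap in 9 of the 31, with Glut1-TG lower in 8 and higher in 1, while this held for 8.77% and 8.67% of all genes (17.4% together).

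**Figure D1:**
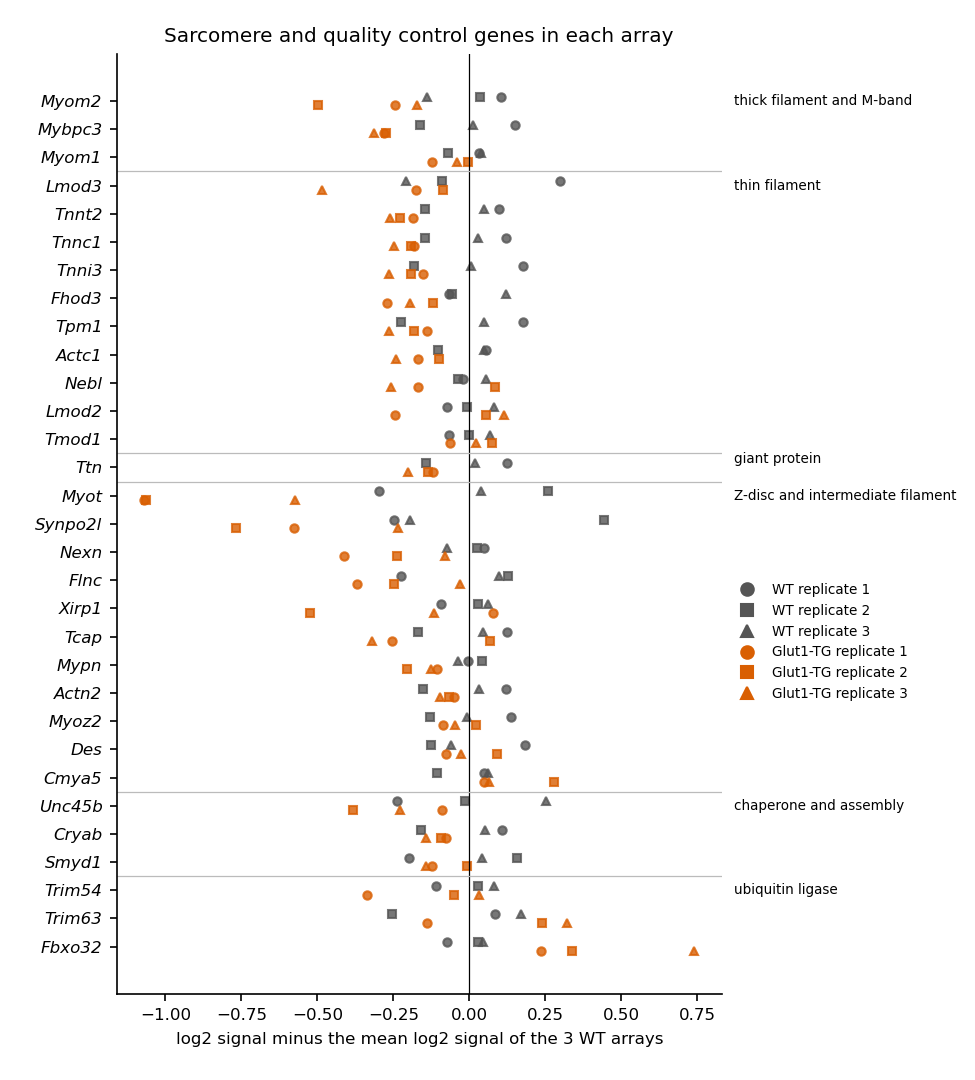
Each row is 1 of the 31 measured genes, grouped by role, and each symbol is 1 array: log2 signal minus the mean of the 3 WT arrays (horizontal axis), WT grey, Glut1-TG orange. The Glut1-TG arrays all lie left of the WT arrays for Myot and right of them for Fbxo32, while the groups overlap for Synpo2l, and WT replicate 1 was the highest of the 6 arrays in 15 of the 31 genes.

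This lean depended on how the arrays were put on a common scale. With the medians of the arrays made equal the median of the list was -0.27 and 28 of 31 genes were below 0, after quantile normalization -0.04 and 19, and with each array centred on the 8 cardiomyocyte genes outside the list, which was added once the data had been seen, -0.001 and 16. The median of all genes moved from 0.017 to -0.08, 0.0042 and 0.19 under these same settings. Over all genes 79 fell and 34 rose at the deposited scaling, 52 and 14 with equal medians, 66 and 48 after quantile normalization and 26 and 43 after centring. The cardiomyocyte markers outside the list were themselves below 0 in 8 of 8, with a median of -0.18. Of these markers, Myh6, Myl2 and Myl3 are sarcomere genes and are counted again among the further sarcomere genes below. Since the 8 markers leaned by about as much as the list, centring on them took the lean away by construction. In heart tissue, fewer cardiomyocytes in the sample and less mRNA of these genes per cardiomyocyte cannot be told apart.

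One property that the genes shared was a very bright signal. All 31 lay in the top 10% of genes tested by mean signal and 11 in the top 1%. Among the 20 brightest genes on the arrays were 5 of them, Tnnt2, Actc1, Tnni3, Tpm1 and Tnnc1, although signals of different probe sets do not rank the mRNAs. The other 1287 genes of the top 10% also tended downward, with a median of -0.07, 67.8% below 0 and 22.2% with every Glut1-TG array below every WT array, against 87.1% and 25.8% of the 31. Of these 1287 genes, 24 fell and 5 rose by limma, and 71 were lower and 19 higher by the study's thresholds. In the top 1%, 121 other genes had a median of -0.14 and 89.3% were below 0, and the 11 sarcomere genes there had -0.17 and 11 of 11. The part that signal brightness plays in the lean of the list was not tested.

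**Figure D2:**
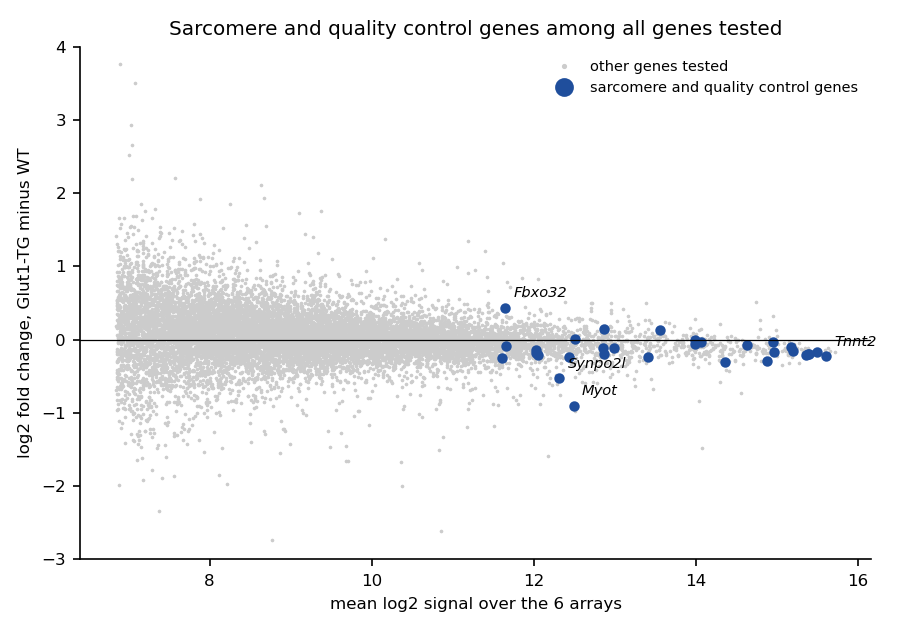
Log2 fold change (Glut1-TG minus WT, vertical axis) against the mean log2 signal over the 6 arrays (horizontal axis) for the 13178 genes tested, with the 31 sarcomere and quality control genes in blue and the others in grey. The blue points lie at the bright end, and Myot, Synpo2l and Fbxo32 stand apart from the narrow band of the other 28.

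Myot encodes myotilin, a Z-disc protein with immunoglobulin domains that binds alpha-actinin and filamin C, and mutations in it cause myofibrillar myopathy. Its signals were 6413, 9424 and 8094 in WT replicates 1 to 3 and 3755, 3769 and 5296 in Glut1-TG replicates 1 to 3. The highest Glut1-TG heart was thus below the lowest WT heart. The mean fell from 7977 ± 1509 to 4273 ± 886 (SD, n = 3), a log2 fold change of -0.90 (standard error 0.16, 95% confidence interval -1.27 to -0.54, limma adjusted p = 0.041), and the ratio of WT to Glut1-TG was 1.87 (1.45 to 2.41). Myot has 1 probe set, so no further probe set could be compared. When all 45037 probe sets were fitted together, it missed the threshold (limma adjusted p = 0.070). Its log2 fold change stayed between -1.07 and -0.73 in all 18 alternative settings, but the call was kept in 6 of the 16 with an adjusted p. It ended without WT replicate 2 or 3 (adjusted p = 0.15 and 0.17) and without Glut1-TG replicate 1 or 2 (both 0.11), and after quantile normalization (0.062).

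Synpo2l, an actin-associated Z-disc protein enriched in heart, was the next lowest. It had signals of 5167, 8333 and 5352 in the WT hearts and 4110, 3599 and 5208 in the Glut1-TG hearts. The groups overlapped, since Glut1-TG replicate 3 was just above WT replicate 1. On the log2 scale it differed by -0.53 (standard error 0.19, 95% confidence interval -0.95 to -0.11, limma adjusted p = 0.35), which did not pass, and by -0.31 without WT replicate 2. Its further 3 probe sets had -0.66, -0.42 and -0.16, the last of them close to the filter, with an adjusted p of 0.717 or more over all probe sets. The arrays with the highest signal within each group, WT replicate 2 and Glut1-TG replicate 3, were the same for Myot and Synpo2l.

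Nexn, nexilin, which binds actin at the Z-disc, had 12302, 12101 and 11306 in WT and 8936, 10090 and 11262 in Glut1-TG hearts. The groups did not overlap, but the closest arrays, WT replicate 3 and Glut1-TG replicate 3, nearly met. Its log2 fold change of -0.24 did not pass (standard error 0.10, limma adjusted p = 0.39). Mypn, myopalladin, which ties nebulin-family proteins to alpha-actinin, had 4363, 4512 and 4269 in WT and 4071, 3799 and 4012 in Glut1-TG hearts, again without overlap. This was a log2 fold change of -0.15 (standard error 0.08, limma adjusted p = 0.52), and centring on the cardiomyocyte genes turned it to 0.02. The further probe set of Mypn, with a mean signal of 885, went the other way with 0.22 (limma adjusted p = 0.83 over all probe sets). The remaining 7 genes measured at the Z-disc and its intermediate filaments had overlapping groups. Of these, Flnc (filamin C), Xirp1 (Xin) and Tcap (telethonin, which caps titin at the Z-disc) had -0.22, -0.19 and -0.17. Without Glut1-TG replicate 2 that of Xirp1 was -0.018 and that of Tcap -0.288, and without Glut1-TG replicate 1 that of Xirp1 was -0.320. Actn2, the alpha-actinin that crosslinks thin filaments, had -0.07 and Myoz2, a calcineurin-binding Z-disc protein, had -0.04, and both lay above 0 after quantile normalization (0.06 and 0.09). Des, the intermediate filament desmin, had signals of 14903 to 18487 in WT and 15425 to 17324 in Glut1-TG hearts, which differed by -0.0040 on the log2 scale (95% confidence interval -0.22 to 0.22). Cmya5, myospryn, was above 0 in this group with 0.13.

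**Figure D3:**
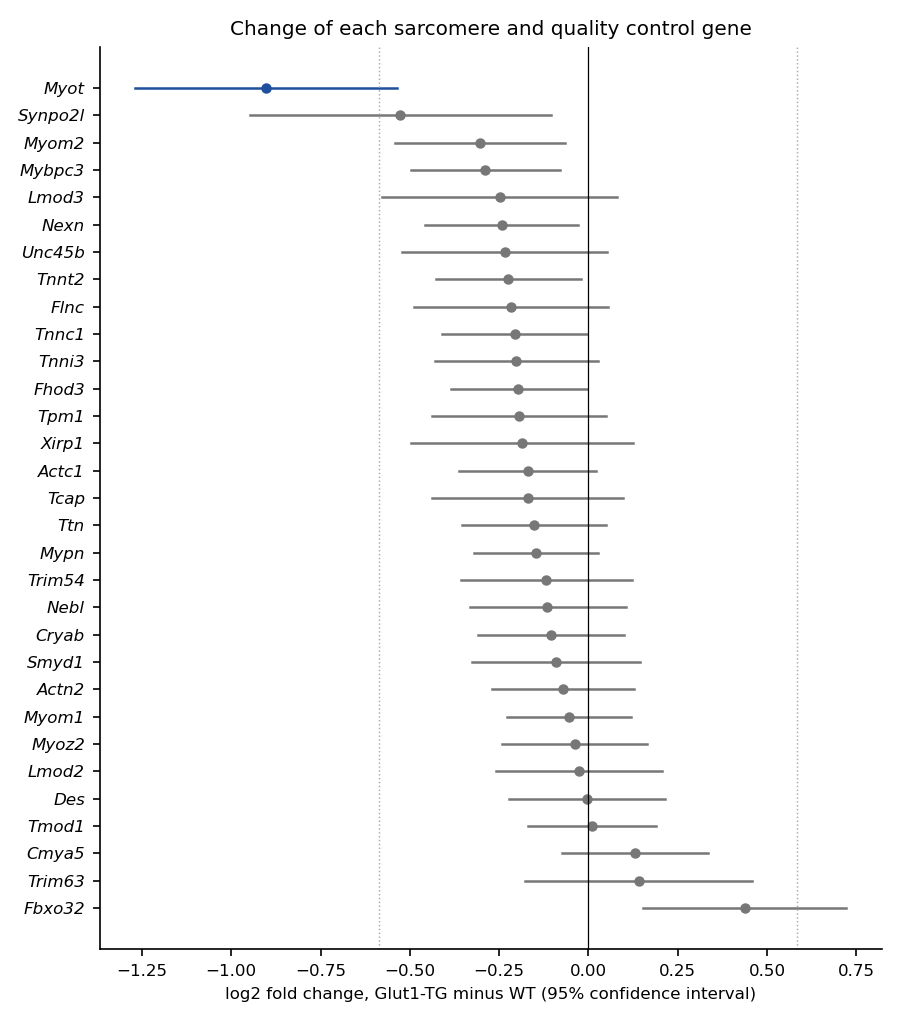
The horizontal axis is the log2 fold change, Glut1-TG minus WT, of the 31 genes in order, with bars for the 95% confidence interval from limma and dotted lines at a 1.5-fold change either way. Myot (blue) is the gene that passed, and the bars of 28 genes lie inside the dotted lines.

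On the thick filament and at the M-band, 0 of 3 genes passed. Mybpc3, cardiac myosin-binding protein C, had 36845, 29656 and 33516 in WT and 27354, 27469 and 26736 in Glut1-TG hearts. Every Glut1-TG heart was below every WT heart, and the Glut1-TG values lay closer together than the WT values. The log2 fold change was -0.29 (standard error 0.09, limma adjusted p = 0.29). Myom2, the M-protein that links myosin rods at the M-band, had 25152, 23973 and 21280 in WT and 19775, 16562 and 20800 in Glut1-TG hearts. The groups did not overlap, with Glut1-TG replicate 2 the lowest, and the log2 fold change of -0.30 did not pass (standard error 0.11, limma adjusted p = 0.33). Its further probe sets had -0.40 and -0.35, while a probe set under the filter had 0.20. Myom1, myomesin, had -0.05, and 0.07 after quantile normalization.

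The 10 thin filament genes had a median log2 fold change of -0.20, with 9 below 0 and 0 past limma. Tnnt2, cardiac troponin T, had 57822, 48816 and 55792 in WT and 47520, 46116 and 45089 in Glut1-TG hearts. WT replicate 2 was the WT heart closest to the Glut1-TG hearts, which all lay below it. The log2 fold change was -0.22 (standard error 0.09, limma adjusted p = 0.40), and further probe sets of Tnnt2 had -0.29 and -0.33. After quantile normalization the first of these values was 0 to 3 decimals (limma adjusted p = 1). Tnnc1, the calcium-binding troponin C, had 49146, 40870 and 46103 in WT and 39903, 39567 and 38138 in Glut1-TG hearts. Its groups did not overlap and its log2 fold change of -0.21 did not pass (standard error 0.09, limma adjusted p = 0.43). Fhod3, a formin that assembles thin filaments, had 7663, 7717 and 8727 in WT and 6649, 7384 and 6999 in Glut1-TG hearts, also without overlap (log2 fold change -0.20, standard error 0.09, limma adjusted p = 0.43).

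In Tnni3 (troponin I), Tpm1 (tropomyosin) and Actc1 (cardiac actin) the groups overlapped through WT replicate 2, which lay within the range of the Glut1-TG hearts. Their log2 fold changes were -0.20, -0.19 and -0.17, and that of Actc1 was 0.03 after quantile normalization. The further 3 probe sets of Tpm1 had 0.03 to 0.08. Among the genes that set thin filament length, Lmod3 and Lmod2, the leiomodins that nucleate or extend actin, had -0.25 and -0.03, and without WT replicate 1 that of Lmod3 was -0.100. Nebl (nebulette), which lines the thin filament near the Z-disc, had -0.11, and Tmod1 (tropomodulin), which caps its pointed end, had 0.01. For Tmod1 the 95% confidence interval was -0.17 to 0.19.

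Ttn encodes titin, the elastic protein that spans from Z-disc to M-band. It had 43300, 36034 and 40311 in WT and 36620, 36225 and 34599 in Glut1-TG hearts. WT replicate 2 lay within the range of the Glut1-TG hearts and the other WT hearts above it. The log2 fold change was -0.15 (standard error 0.09, limma adjusted p = 0.57), and 0.004 after quantile normalization. Titin had 6 probe sets, of which 5 had log2 fold changes from -0.40 to -0.15 and the dimmest had 0.07. None of the 61 probe sets of the list passed when all 45037 probe sets were fitted together.

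**Figure D4:**
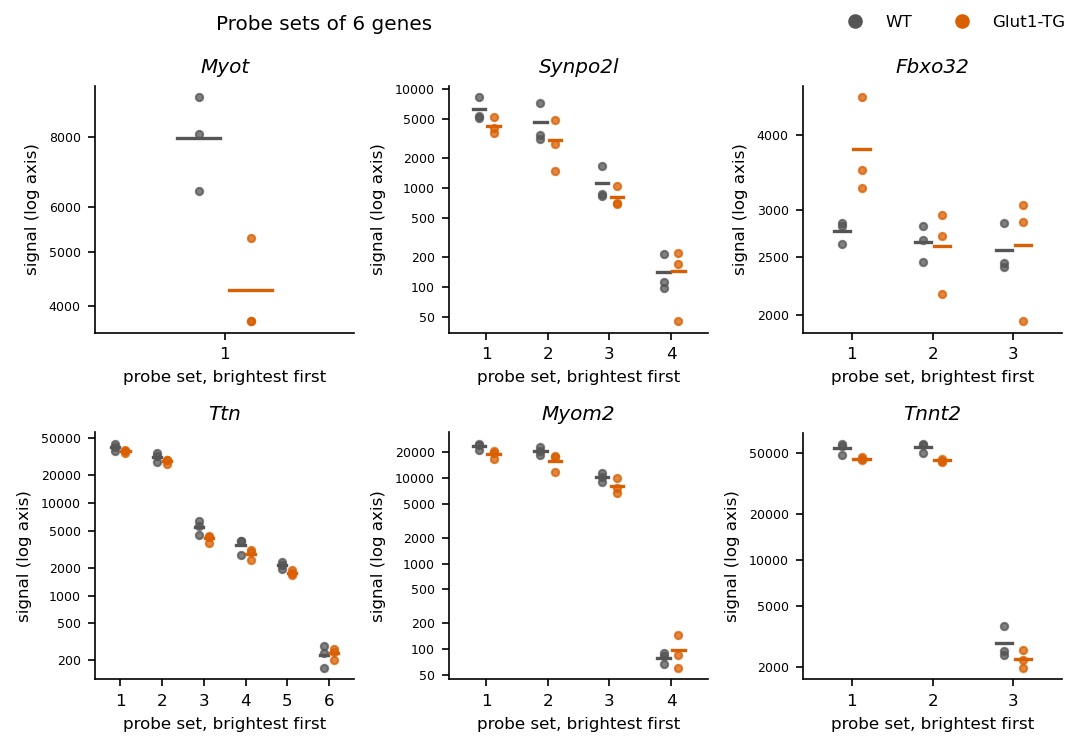
Signal (vertical axis, logarithmic) of each probe set of 6 genes, brightest first, with 1 point per array and a bar at the mean of 3 arrays, WT grey and Glut1-TG orange. The groups are apart for the single Myot probe set and for the first Fbxo32 probe set, and overlap for both further Fbxo32 probe sets. They are also apart, in part narrowly, for some probe sets of Ttn, Myom2 and Tnnt2.

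Of the 6 chaperone, assembly and ubiquitin ligase genes 0 passed, with 4 below 0 and 2, Trim63 and Fbxo32, above 0. Fbxo32, the substrate receptor of an SCF ubiquitin ligase, was the gene of the list with the highest log2 fold change. Its signals were 2626, 2818 and 2855 in WT and 3260, 3492 and 4617 in Glut1-TG hearts. Every Glut1-TG heart lay above every WT heart, and Glut1-TG replicate 3 was far above the other Glut1-TG hearts. It was higher by 0.44 on the log2 scale, and this missed the threshold (standard error 0.13, 95% confidence interval 0.15 to 0.72, limma adjusted p = 0.22). Both further probe sets of Fbxo32 had a similar signal, with WT means of 2648 and 2570 against 2767 for the first, and log2 fold changes of -0.03 and 0.0075. The value of this gene therefore rested on the probe set used, and as the mean of its probe sets it was 0.14. Without Glut1-TG replicate 3 the log2 fold change was 0.29.

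Trim63, the RING ubiquitin ligase of titin and thick filament proteins, had 7573, 5989 and 8049 in WT and 6490, 8445 and 8936 in Glut1-TG hearts. These ranges overlapped for most of their length, and the difference on the log2 scale was 0.14 (standard error 0.14, 95% confidence interval -0.18 to 0.46, limma adjusted p = 0.76). It was 0.014 without WT replicate 2 and 0.282 without Glut1-TG replicate 1. Trim54, the related MuRF3, had -0.12 (limma adjusted p = 0.73), and -0.009 without Glut1-TG replicate 1. Among chaperones and assembly factors, Unc45b, which folds the myosin head, had 5100, 5950 and 7169 in WT and 5651, 4610 and 5131 in Glut1-TG hearts. The groups overlapped at a log2 fold change of -0.23 (standard error 0.13, limma adjusted p = 0.53), which was -0.108 without WT replicate 3. Cryab, the small heat shock protein alpha B-crystallin, had -0.10, and 0.05 after quantile normalization. Smyd1, a muscle methyltransferase needed for myosin assembly, had -0.09 (limma adjusted p = 0.80).

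The 95% confidence intervals of 28 of the 31 genes lay within a 1.5-fold change either way at the deposited scaling, the exceptions being Myot, Synpo2l and Fbxo32. In 22 of the 31 the interval included 0. Of the 31 genes, 12 had several probe sets, 30 further ones in all, and 13 of these lay on the other side of 0 from the probe set used. Besides those of Fbxo32 and Myom2, the probe sets that departed most were dim. The second probe set of Des, with a mean of 268 against 16240 for the first, had 0.90 (adjusted p = 0.50 over all probe sets). One of Smyd1, with 671, had 0.56, one of Cryab, with 143, had 0.36 and one of Nebl, with 318, had 0.34, and all of these had an adjusted p of 0.574 or more.

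**Figure D5:**
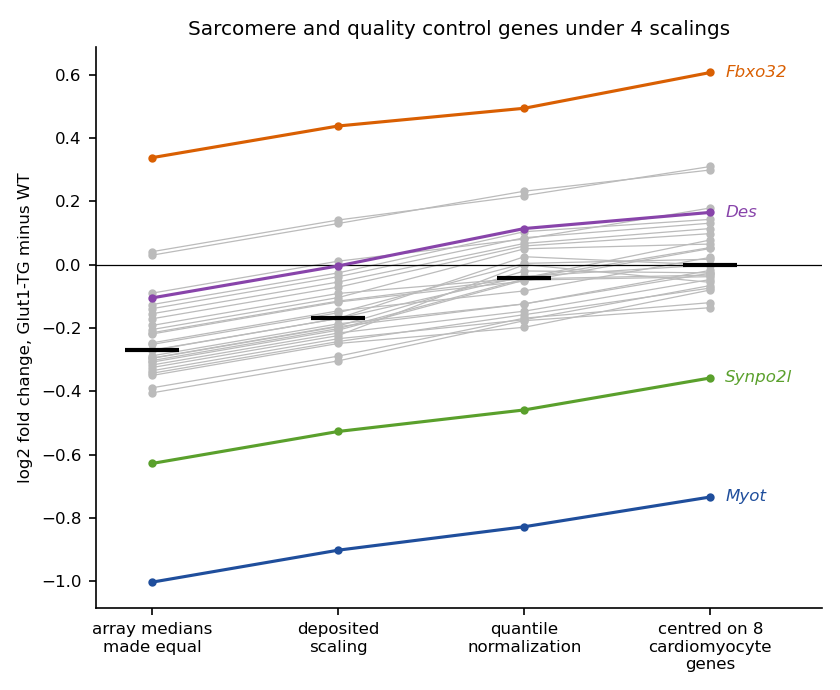
Log2 fold change (Glut1-TG minus WT, vertical axis) of the 31 genes under 4 scalings of the arrays (horizontal axis), 1 line per gene and a black bar at the median. The medians run from -0.27 to -0.001, while Myot is the lowest and Fbxo32 the highest line under each.

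Other genes of the pathway were taken from lists, whose log2 fold changes lay on both sides of 0. Below 0 were 14 of 20 further sarcomere and Z-disc genes, 5 of 9 skeletal muscle isoforms, 7 of 19 costamere genes, 15 of 20 chaperones and ligases, 6 of 17 autophagy genes, 23 of 26 proteasome subunits and 15 of 20 transcription factors, against 47% of all genes tested. That share was 67.8% among the other 1287 genes of the top 10% by mean signal, and the lists were not matched for signal. The medians of these lists ran from -0.08 (transcription factors) to 0.04 (autophagy), at the deposited scaling. Of 20 further sarcomere and Z-disc genes, 0 passed limma, and the lowest p was that of Csrp3, a LIM protein of the Z-disc (log2 fold change -0.30, limma adjusted p = 0.16). Of 19 genes of the costamere and the dystrophin complex, which tie the sarcomere to the cell membrane, 1 fell and 0 rose. This was Sgca, alpha-sarcoglycan, with 6631, 6021 and 5414 in WT and 3957, 4199 and 4155 in Glut1-TG hearts, and the groups did not overlap. Its log2 fold change was -0.55 (standard error 0.09, limma adjusted p = 0.031), and the call was kept without WT replicate 3 and ended without each of the other 5 arrays in turn (adjusted p = 0.066 to 0.12) and with the replicate block (0.0765). Of 9 isoforms typical of skeletal muscle that passed the filter, 0 passed limma, and slow troponin T (Tnnt1) had 0.74 (limma adjusted p = 0.18, and 0.020 without Glut1-TG replicate 1).

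Of 20 muscle chaperones and other ubiquitin ligases, 0 passed limma, and Hspb7, a cardiac small heat shock protein, had -0.34 (limma adjusted p = 0.20). Of 26 proteasome subunits 0 passed, and Psmc3 had the lowest p (log2 fold change -0.20, limma adjusted p = 0.41). Of 17 autophagy genes 1 rose and 0 fell. Ulk1, the kinase that starts autophagy, had 1745, 1414 and 1373 in WT and 3364, 3189 and 2507 in Glut1-TG hearts, and every Glut1-TG heart was above every WT heart. It rose, at a log2 fold change of 1.00 (standard error 0.14, limma adjusted p = 0.0095). The call ended without WT replicate 2 or 3 (adjusted p = 0.061 and 0.060) and for the mean of its probe sets (0.069). Of 20 transcription factors of muscle genes 1 fell and 0 rose, which was Klf15, a factor of amino acid metabolism and muscle wasting (log2 fold change -0.50, standard error 0.09, limma adjusted p = 0.039). The Klf15 call ended with the replicate block (adjusted p = 0.087) and without each of the 6 arrays in turn (0.058 to 0.19).

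Promoters of the list were read from RefSeq (GRCm38.p6), as windows from 250 bases before to 50 after the start of the gene. The table held 28 windows for 22 of the 31 genes. Motifs were searched on both strands, and no 2 motifs overlapped in these windows. The site of the muscle factor MEF2 was in 5 of the 28 windows, from 4 genes (17.9%, against 1.86% of 32851 windows of all genes). The CArG box of serum response factor was in 3 windows (10.7% against 1.63%). The MCAT motif of TEAD factors (CATTCC) was in 11, from 10 genes (39.3% against 14.7%). The FOXO motif (GTAAACA) was in 1 (3.57% against 3.65%), and CACCC, which KLF factors bind, in 19, from 17 genes (67.9% against 57.5%). Windows of 1 gene can overlap, so that a site counts more than once, as in Flnc. A match describes these letters alone. The windows below are shown because they hold such a match in a wasting marker, in a bright thin filament gene and in the second lowest gene of the list, and capitals mark the FOXO motif, here on the reverse strand, in Trim63 (chr4:134314870-134315169, plus strand), the CArG box in Actc1 (chr2:114052826-114053125, minus strand) and the MEF2 site in Synpo2l (chr14:20668305-20668604, minus strand).
Trim63: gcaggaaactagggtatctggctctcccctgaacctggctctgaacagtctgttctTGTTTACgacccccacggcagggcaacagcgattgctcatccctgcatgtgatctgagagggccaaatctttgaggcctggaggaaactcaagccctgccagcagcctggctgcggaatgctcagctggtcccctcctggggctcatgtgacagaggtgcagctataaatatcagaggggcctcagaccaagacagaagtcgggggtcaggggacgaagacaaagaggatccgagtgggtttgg
Actc1: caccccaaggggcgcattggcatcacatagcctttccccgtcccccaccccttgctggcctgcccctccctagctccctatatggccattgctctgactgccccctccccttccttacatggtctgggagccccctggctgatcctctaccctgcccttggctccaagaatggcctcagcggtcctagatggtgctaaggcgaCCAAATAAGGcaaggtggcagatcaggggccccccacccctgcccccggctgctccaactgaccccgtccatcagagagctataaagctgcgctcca
Synpo2l: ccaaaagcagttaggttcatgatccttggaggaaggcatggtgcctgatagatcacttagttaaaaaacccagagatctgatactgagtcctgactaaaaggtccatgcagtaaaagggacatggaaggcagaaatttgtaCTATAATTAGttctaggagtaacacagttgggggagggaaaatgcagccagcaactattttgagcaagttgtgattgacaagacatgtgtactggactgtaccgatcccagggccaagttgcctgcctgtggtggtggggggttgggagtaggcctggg
The matches began 194, 47 and 109 bases before the start of Trim63, Actc1 and Synpo2l. The last of these genes has a second listed window, and these arrays do not show which start the heart uses.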

How the data were processed

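Total RNA of left ventricles was labelled as biotinylated cRNA and hybridised to an Affymetrix mouse array by the authors, who processed the scans with GCOS (version not given in the sources used here). The deposited table holds linear signal intensities per probe set, which the authors had brought to a common trimmed mean. Of 45101 probe sets, 64 controls were left out, and 48 values under 1 were set to 1 before log2. Of the rest, 34945 carried 1 symbol, and the probe set with the brightest mean on the log2 scale stood for its gene, also where an array was left out. The lowest 40% of probe sets (under a signal of 115) were dropped, which left 13178 genes. WT and Glut1-TG were compared with limma 3.58.1 in R 4.3.3 (lmFit, eBayes with an intensity trend), with Benjamini-Hochberg adjustment over these genes. The labels give no batch, and 3 arrays per group limit the precision. Nothing says that the hearts shared litters. The limma p-values set a group difference against the spread between these samples, which eBayes moderates toward a trend over all genes. The genes followed, the lists and markers, and the way genes were picked for naming were chosen with earlier results of these data known. Genes were given array by array if they passed limma, passed the study's thresholds, had groups that did not overlap, or had the lowest p of their role, and Trim63 and Synpo2l, and some further probe sets, were added after their values were seen. Further probe sets were given where their sign differed with either past 0.3 or they differed by over 0.5. The study's columns of signals were the only values used. The limma fit was tested on simulated arrays with independent genes, larger changes than most here and no shift in scale between arrays. That test therefore does not bear on the scaling or on small changes. Alternatives covered scaling, offset, filter, probe set choice, replicate block, test and each array left out. Some probe sets can hybridise to transcripts of more than 1 related gene.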

Additional observations from a re-analysis of the deposited data

How the results depend on the processing

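Of 558 values of the 31 genes recomputed in 18 alternative settings, 508 kept direction and side of the threshold. The count of genes that fell was 0 after quantile normalization, with equal array medians, as the mean of probe sets, by eBayes without trend, by the methods' t-test with adjustment and after centring on cardiomyocyte genes. It was 8 at an unadjusted p, where 1 gene was higher, and 0 to 1 without single arrays. The median of -0.17 was -0.042 after quantile normalization, -0.270 with equal array medians and -0.001 after centring. Signs turned in 32 values. After quantile normalization these were Actc1 0.025, Actn2 0.059, Cryab 0.050, Des 0.114, Lmod2 0.104, Myom1 0.067, Myoz2 0.085 and Ttn 0.004. After centring they were Actn2 0.098, Cryab 0.065, Des 0.165, Lmod2 0.143, Myom1 0.114, Myoz2 0.131, Mypn 0.023, Nebl 0.054, Smyd1 0.078, Trim54 0.051 and Ttn 0.017. As the mean of probe sets they were Cryab 0.044, Des 0.447, Mypn 0.039 and Smyd1 0.102, and with equal medians Tmod1 -0.090. Without single arrays Des ran from -0.067 to 0.088, Lmod2 from -0.096 to 0.084, Myoz2 from -0.103 to 0.031 and Tmod1 from -0.023 to 0.048. The replicate block left the count at 1 and Myot at -0.90 (adjusted p = 0.041). It ended the calls of Sgca and Klf15 among the genes named. Equal medians and centring ended both too (adjusted p = 0.0657 and 0.117, and 0.171 and 0.309), and without the trend Myot, Sgca, Klf15 and Ulk1 all missed (0.297, 0.268, 0.241 and 0.191). Same-numbered arrays correlated at 0.08, -0.033 and 0.055 in their deviations from the group means, and differently numbered arrays at -0.107 to 0.064. With 3 arrays per group this cannot settle whether the numbers pair the hearts. The cause of these shifts was not tested. Over all genes, 79 fell and 34 rose, against 37 and 9 as the mean of probe sets, 46 and 23 with the block, 2 and 2 by eBayes without trend and 0 and 1 by the adjusted methods' t-test, and 31 to 65 fell and 13 to 30 rose without single arrays.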
